A study of Drosophila melanogaster with 19 samples.

Results

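The transcriptome of outer photoreceptors at day 50 (D50) was compared with that at day 30 (D30), to ask which genes had already changed 20 days later in adult life. The comparison used 6 of the 19 libraries of the study, 3 from D30 flies and 3 from D50 flies, and tested 4179 of the 13929 genes counted. These were the genes that passed the default expression filter of edgeR on the 6 libraries. All flies were males of one genotype, with *UAS-GFP-Msp300KASH* driven by *rh1-GAL4*, in a background of *w* and *ry[506]*, and are called Rh1>GFPKASH. They were raised at 25 °C in cycles of 12 h light and 12 h dark and were harvested at Zeitgeber time (ZT) 6, in the middle of the light phase, so that by their labels D30 and D50 differed in age alone. Each library came from a separate pool of age-matched flies. GFPKASH, a green fluorescent protein held in the outer nuclear membrane, marks the nuclei in which the promoter of *ninaE* (Rhodopsin 1) is active, and these nuclei were enriched from heads with an antibody. The RNA is therefore nuclear RNA. Outer photoreceptors were the only cells marked, and nuclei of other head cells can be carried along in such an enrichment. D40 and D60 flies, with 3 libraries each, had the same genotype and treatment and are read beside the comparison where stated.

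Outer photoreceptors are neurons that do not divide and that are kept for the whole life of the fly. Light activates Rhodopsin 1, which acts through a G protein and phospholipase C to open the TRP and TRPL channels, and the cells signal to the brain with histamine. Visual function falls as flies age. Nuclear RNA follows genes as they are transcribed and processed more closely than it follows the mRNA pool of the cytoplasm.

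The 6 libraries held 629634 to 824704 counts. Levels are given as CPM, the counts of a gene per 1000000 counts of its library, scaled with TMM factors over all 12 libraries of the D30, D40, D50 and D60 flies, and are not corrected for gene length. D30 replicate 1 stood apart from the rest. Its correlation with the other D30 libraries across genes was 0.943 (Pearson's r of log2 CPM, a description across genes), against 0.977 between D30 replicates 2 and 3, and *Ank2*, the most abundant gene, took 4.50% of its counts against 8.17% and 9.55% in those libraries. All 13 markers of outer photoreceptors were tested and 0 were called, with a summed level of 69325 to 77062 CPM at D30 and 70426 to 91447 CPM at D50. Markers of other cell types lay far lower. Their sums at D30 and at D50 ranged over 215 to 240.5 and 240.5 to 402 CPM for glia, 268 to 462 and 318 to 537 CPM for muscle, 116 to 158 and 132 to 160 CPM for hemocytes, and 340 to 815 and 624 to 1138 CPM for fat body. Over the markers of all cell types only *ple*, a marker of dopamine neurons, was called.

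At D50, 49 genes were higher than at D30 (1.17% of the 4179 tested) and 8 were lower (0.191%), at a Benjamini-Hochberg adjusted p-value under 0.05 in the quasi-likelihood test of edgeR. Together these 57 genes were 1.36% of those tested, and before adjustment 616 genes lay under 0.05. With a share this small, a short gene list without a called gene does not show that its members were unchanged. The CPM of the groups did not overlap for any of the 57 genes. Over all genes tested, 10.4% lay wholly higher and 11.3% wholly lower at D50. Among the 42 rising genes that averaged at least 20 counts in a library, the log2 fold change ranged from 0.76 for *Hsp83* to 2.76 for *Mettl3*, and 45 of all 49 rising genes changed more than 2-fold. The falling genes moved less, with log2 fold changes between -0.68 and -1.69, and 2 of the 8 changed more than 2-fold. The median over all genes tested was -0.00. Fewer nuclei of a type and less RNA per nucleus cannot be told apart in these pooled samples.

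How far a call depended on single libraries differed between genes. Without D30 replicate 1 the test called 78 genes, and without any one of the other 5 libraries it called 21 to 36. Of the 57 genes, 17 stayed called in all 6 fits without a library. These were *Aldh*, *Cdc6*, *CG1648*, *CG31286*, *CG32572*, *cutlet*, *dbr*, *Gnmt*, *Mettl3*, *Mp*, *per*, *ple*, *Rgk1*, *RyR*, *Shawl*, *Snx1* and *tej*, all of them rising. None of the 8 falling genes was among the 17.

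Among the genes with the largest rise were 2 that encode methyltransferases. *Mettl3* (chromosome 3R, 24032157 to 24034257, BDGP6 assembly) encodes the catalytic subunit of the complex that writes N6-methyladenosine (m6A) into RNA. Its level was 7.96, 21.6 and 23.5 CPM at D30 and 98.5, 96.9 and 167 CPM at D50. Every D50 library lay far above every D30 library, and the log2 fold change was 2.76 ± 0.35 (SE, edgeR adjusted p = 0.00362). The other 6 tested genes of the m6A list, which encode writer subunits and readers of the mark, were not called and had log2 fold changes from -0.54 for *Ythdc1* to 0.18 for *vir*. *Gnmt* encodes glycine N-methyltransferase, which consumes the methyl donor S-adenosylmethionine. It had 5, 5 and 4 counts at D30 and 38, 36 and 24 at D50, and a log2 fold change of 2.57 ± 0.36 (SE, edgeR adjusted p = 0.00519). Its exons overlap those of *CG43630*, so its counts may hold reads of that gene. *Sam-S*, which makes S-adenosylmethionine, was not called, at -0.14 ± 0.19 (SE).

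**Figure D1:**
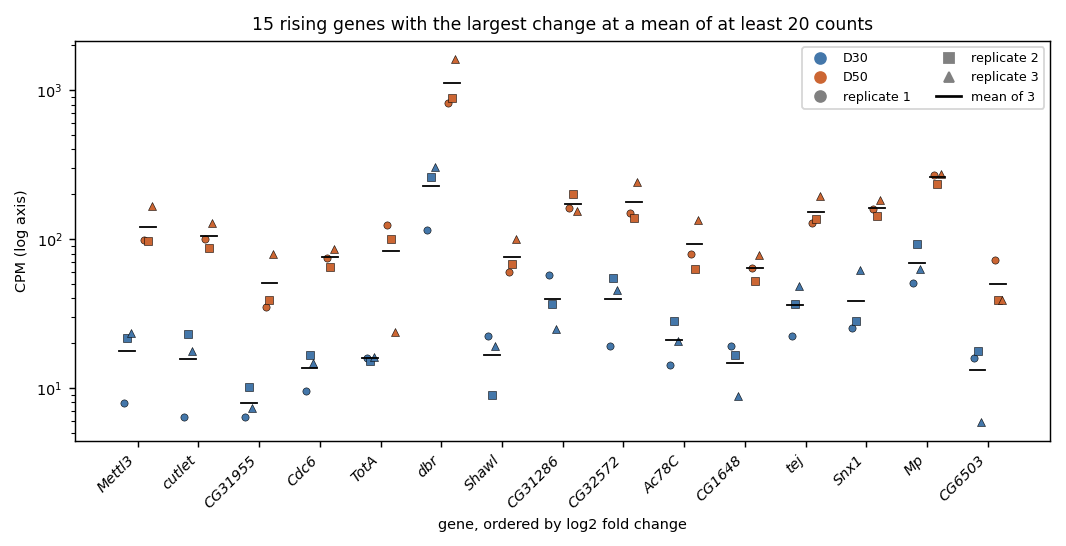
Level of the 15 rising genes with the largest change at a mean of at least 20 counts, in each of the 3 D30 (blue) and 3 D50 (orange) libraries, as CPM on a log axis, with bars at the means. The D50 points lie above the D30 points for each gene, and for *TotA* D50 replicate 3 (23.8 CPM) lies close to D30. D50 replicate 3 is the highest library for all of these genes except *TotA*, *CG31286* and *CG6503*.

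The rising genes also included 2 whose products act on DNA. *cutlet* (chromosome 2L, 3707230 to 3711748) encodes a protein related to the clamp loader subunit CHTF18, which helps to place the sliding clamp on DNA. Its level was 6.37, 22.9 and 17.6 CPM at D30 and 100.9, 87.2 and 128 CPM at D50, with a log2 fold change of 2.73 ± 0.34 (SE, edgeR adjusted p = 0.00351). The neighbouring gene *CG31955* (chromosome 2L, 3711881 to 3713105) lies just upstream of *cutlet* on the same strand and had 6.37, 10.2 and 7.35 CPM at D30 and 34.8, 38.7 and 78.9 CPM at D50. D50 replicate 3 was the highest library for both. For *CG31955* the log2 fold change was 2.65 ± 0.43 (SE, edgeR adjusted p = 0.0117), and without D30 replicate 3 its adjusted p was 0.0528 in edgeR. *Cdc6* (chromosome 3L, 8631509 to 8634069) encodes a factor that licenses origins of replication. It stood at 9.56, 16.6 and 14.7 CPM at D30 and 74.5, 65.4 and 86.4 CPM at D50, and no D50 library came near the range of D30. Its log2 fold change was 2.46 ± 0.29 (SE, edgeR adjusted p = 0.00351). The other 16 genes of the replication licensing list did not pass the expression filter. None of the 11 tested genes of the DNA repair and topoisomerase list was called, with a median log2 fold change of 0.10.

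Several rising genes encode channels or proteins that act on calcium and cAMP. *Shawl* encodes a potassium channel of the Shaw family. Its level was 22.3, 8.91 and 19.1 CPM at D30 and 60.1, 67.8 and 100.2 CPM at D50, with a log2 fold change of 2.22 ± 0.35 (SE, edgeR adjusted p = 0.00923). The potassium channel list, which did not hold *Shawl*, had 0 of 11 tested genes called, beside 1.36% of all genes tested. Its median was -0.22. *Ac78C* encodes an adenylyl cyclase, which makes cAMP. It stood at 14.3, 28.0 and 20.6 CPM at D30 and 79.3, 63.0 and 135 CPM at D50, highest in D50 replicate 3, and its log2 fold change was 2.13 ± 0.35 (SE, edgeR adjusted p = 0.0117). Without D30 replicate 3 its adjusted p in edgeR was 0.0525. The other 14 tested genes of the cAMP list were not called, and the largest of their values were 1.20 ± 0.32 for *Epac* and 1.02 ± 0.38 for *Ac13E* (SE). *Rgk1* encodes a small GTPase of the RGK family, whose mammalian members inhibit voltage-gated calcium channels. The D30 libraries held 70.1, 112 and 83.8 CPM of it and the D50 libraries 300.3, 236 and 437 CPM, a log2 fold change of 1.89 ± 0.25 (SE, edgeR adjusted p = 0.00384). *RyR* encodes the ryanodine receptor, which releases calcium from the endoplasmic reticulum. It was measured at 78.0, 113 and 70.6 CPM at D30 and 269, 237 and 279 CPM at D50, with D50 libraries close together, and its log2 fold change was 1.60 ± 0.20 (SE, edgeR adjusted p = 0.00351). The other 15 tested genes of the calcium and sodium list were not called.

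Other genes with a large rise belong to protein sorting, small RNA pathways and the matrix. *dbr* (chromosome 2L, 66482 to 71390) encodes debra, which takes part in the lysosomal degradation of the Hedgehog pathway factor Cubitus interruptus. It was the most abundant of the 15, with 114.7, 261 and 307 CPM at D30 and 820.4, 888 and 1623 CPM at D50. D30 replicate 1 was its lowest library and D50 replicate 3 its highest, and the log2 fold change was 2.31 ± 0.34 (SE, edgeR adjusted p = 0.00654). Its exons overlap the noncoding genes *lncRNA:CR45340* and *asRNA:CR44987*. *Snx1* encodes a sorting nexin, a part of the machinery that returns cargo from endosomes. Its level was 25.5, 28.0 and 61.7 CPM at D30 and 159.8, 144 and 183 CPM at D50, and its log2 fold change was 2.10 ± 0.29 (SE, edgeR adjusted p = 0.00464). *tej* encodes a Tudor domain protein of the piRNA pathway, known from the germline. In photoreceptor nuclei it was at 22.3, 36.9 and 48.5 CPM at D30 and 129, 136 and 195 CPM at D50, a log2 fold change of 2.10 ± 0.28 (SE, edgeR adjusted p = 0.00384). *Mp* encodes Multiplexin, a collagen of the type XV and XVIII kind found in basement membranes. The D30 libraries held 51.0, 92.9 and 63.2 CPM and the D50 libraries 270.3, 236 and 274 CPM, the tightest D50 group of the 15 relative to its mean. Its log2 fold change was 1.92 ± 0.22 (SE, edgeR adjusted p = 0.00351). Of the other 4 tested basement membrane genes, 0 were called, and *vkg* and *Col4a1*, which encode collagen IV, had 0.57 ± 0.53 and 0.16 ± 0.45 (SE).

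The remaining 5 of the 15 were *TotA* and 4 genes known by CG numbers. *TotA* encodes a Turandot protein, a humoral factor that the fat body secretes after stress. It was at 15.9, 15.3 and 16.2 CPM at D30 and 125, 100.5 and 23.8 CPM at D50. Both D50 replicates 1 and 2 lay far above D30, but D50 replicate 3 lay just above it, and the log2 fold change was 2.41 ± 0.52 (SE, edgeR adjusted p = 0.0466). Of the 6 fits without a library it was called only in the one without D50 replicate 3. The fat body sum was 815, 353 and 340 CPM in the D30 libraries and 1138, 1108 and 624 CPM in the D50 libraries, so that it was lowest at D50 in replicate 3 as well. Nearly all of that sum was *apolpp*. Of the other 6 genes of the list, *Lsp2* had 4.78, 14.0 and 14.7 CPM at D30 and 38.4, 15.7 and 1.25 CPM at D50 and was not called, so that it too was highest in D50 replicate 1 and lowest in D50 replicate 3. *Yp3* had 1 to 4 counts in each library, and *Fbp1*, *Fbp2*, *Yp1* and *Yp2* had no count in any D30 library and at most 2 in a D50 library. The part of fat body RNA in the *TotA* result was not tested. *CG31286* stood at 57.3, 36.9 and 25.0 CPM at D30 and 162, 202 and 155 CPM at D50, with a log2 fold change of 2.16 ± 0.27 (SE, edgeR adjusted p = 0.00351), and its exons overlap *Ass*. For *CG32572*, whose exons overlap *CG34325*, the values were 19.1, 54.7 and 45.6 CPM at D30 and 150.2, 138 and 240.5 CPM at D50, and the log2 fold change was 2.14 ± 0.33 (SE, edgeR adjusted p = 0.00769). *CG1648* had 19.1, 16.6 and 8.82 CPM at D30 and 63.7, 52.1 and 77.7 CPM at D50 and a log2 fold change of 2.13 ± 0.32 (SE, edgeR adjusted p = 0.00769). All 3 kept their call in each fit without a library, but *CG31286* lost it when all ages shared a fit (edgeR adjusted p = 0.0656). *CG6503* had 15.9, 17.8 and 5.88 CPM at D30 and 72.1, 38.7 and 38.8 CPM at D50, with a log2 fold change of 1.92 ± 0.41 (SE, edgeR adjusted p = 0.0466), and it kept its call in only 1 of those fits.

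Below these, 2 rising genes encode enzymes of amine and aldehyde metabolism. *ple* encodes tyrosine hydroxylase, which makes the precursor of dopamine and which is used as a marker of dopamine neurons. Its level was 116, 174 and 166 CPM at D30 and 482, 372 and 684 CPM at D50, with a log2 fold change of 1.77 ± 0.24 (SE, edgeR adjusted p = 0.00384). No D50 library came near the D30 range. The other 5 tested genes of the dopamine list were not called, among them *Ddc*, the next enzyme of the pathway, at -0.25 ± 0.35 (SE). The other markers of neurons that do not use histamine summed to 79.6 to 123.5 CPM at D30 and 95.2 to 154 CPM at D50. The lowest of these D50 sums was in replicate 3, the D50 library with the most *ple*. The part of such neurons in the *ple* result was not tested. *Aldh* encodes an aldehyde dehydrogenase. It was measured at 60.5, 87.9 and 83.8 CPM at D30 and 246, 162 and 319 CPM at D50, and its log2 fold change was 1.67 ± 0.25 (SE, edgeR adjusted p = 0.00769). The other 12 tested genes of the antioxidant and aldehyde list were not called, although 11 of the 13 had a positive value. *Ldh*, which encodes lactate dehydrogenase, had 4, 18 and 18 counts at D30 and 66, 47 and 42 at D50 and a log2 fold change of 1.75 ± 0.38 (SE, edgeR adjusted p = 0.0485). *Ldh* kept its call in only 1 of the 6 fits without a library.

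Of the 31 tested genes of the cell adhesion list, *Fas2* and *Dscam1* rose (6.45%, beside 1.17% of all genes tested) and 0 fell. The list was chosen with earlier results of these data known, so its share cannot be weighed against that of all genes. *Fas2* encodes Fasciclin 2, an adhesion protein of axons and synapses. Its level was 43.0, 56.0 and 60.3 CPM at D30 and 113, 138 and 124 CPM at D50, with a log2 fold change of 1.25 ± 0.20 (SE, edgeR adjusted p = 0.0117). The call of *Fas2* was lost without D50 replicate 2. *Dscam1* encodes a receptor of the immunoglobulin family with very many splice forms, by which branches of one neuron recognise each other. It stood at 118, 183 and 212 CPM at D30 and 405, 380.2 and 344 CPM at D50, and its log2 fold change was 1.16 ± 0.20 (SE, edgeR adjusted p = 0.0178). The D50 libraries were close together, and D30 replicate 1 was the lowest. The call of *Dscam1* was lost without D30 replicate 2, D50 replicate 1 or D50 replicate 2, and antisense genes overlap its exons. The remaining 29 adhesion genes ranged from -0.70 for *robo1* to 0.72 for *Fas3*, and the median of the list was -0.05.

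*Hsp83* and *RpS15Aa* were the only called genes of the chaperone and ribosomal protein lists. *Hsp83* encodes Hsp90, an abundant cytosolic chaperone. Its level was 890.3, 819.9 and 735 CPM at D30 and 1410.2, 1223 and 1442 CPM at D50, with a log2 fold change of 0.76 ± 0.15 (SE, edgeR adjusted p = 0.0315), the smallest rise of the 49, and it kept its call in only 1 of the 6 fits without a library. Of the 18 tested chaperone genes 14 had a positive value, and the median was 0.31. The genes of the inducible Hsp70 chaperones, which are near-identical copies whose reads can be split among them, had values between -0.03 and 0.68 with SEs up to 0.70 and were not called. Among 12 tested genes of the endoplasmic reticulum stress list 0 were called and 10 were positive, with a median of 0.26. The largest values there were 0.81 ± 0.24 for *Gp93* and 0.70 ± 0.34 for *ERp60* (SE), which encode folding factors of that compartment.

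Ribosomal protein genes had small positive values at D50, and 1 of 71 (1.41%) was called, near the 1.17% of all genes tested. A positive value was found for 70 of the 71, and the median was 0.67 against -0.00 over all genes tested. A further 27 had an unadjusted p-value under 0.05. *RpS15Aa*, the one called, had 8, 10 and 11 counts at D30 and 43, 33 and 25 at D50 and a log2 fold change of 1.58 ± 0.32 (SE, edgeR adjusted p = 0.0397). Its call was lost in 5 of the 6 fits without a library, and its reads may be shared with the paralog *RpS15Ab*. The summed level of the 71 genes was 1825, 1976 and 1799 CPM at D30 and 4177, 2572 and 2159 CPM at D50. The groups did not overlap, but D50 replicate 1 lay far above the other D50 libraries. The same library was the highest at D50 in the summed markers of outer photoreceptors (91447 CPM, against 70426 and 70988 CPM). So it was for glia (402 CPM, against 289 and 240.5 CPM) and for R7 and R8 photoreceptors (390 CPM, against 328 and 204 CPM). It was also the highest for cone and pigment cells (362 CPM, against 318 and 193 CPM) and for the fat body given above. For muscle it had 537 CPM, against 524 and 318 CPM, and for hemocytes 160 CPM, against 136 and 132 CPM. Only the sum for neurons that do not use histamine, with *ple* included, was highest in D50 replicate 3 (779 CPM). In that library *ple* alone had 684 CPM. Without *ple* the sum for these neurons was lowest at D50 in replicate 3 (95.2 CPM). The part of other cell types in the ribosomal protein values was not tested. Without D50 replicate 1 the median of the list was 0.40, and without replicate 1 of both ages it was 0.29. These are short genes, with a median gene length of 1428 bp. Over all genes tested, the median log2 fold change was 0.17 for the 491 genes under 2 kb, 0.04 from 2 to 5 kb, -0.04 from 5 to 20 kb and -0.07 for longer genes. The part of gene length in the ribosomal protein values was not tested.

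**Figure D2:**
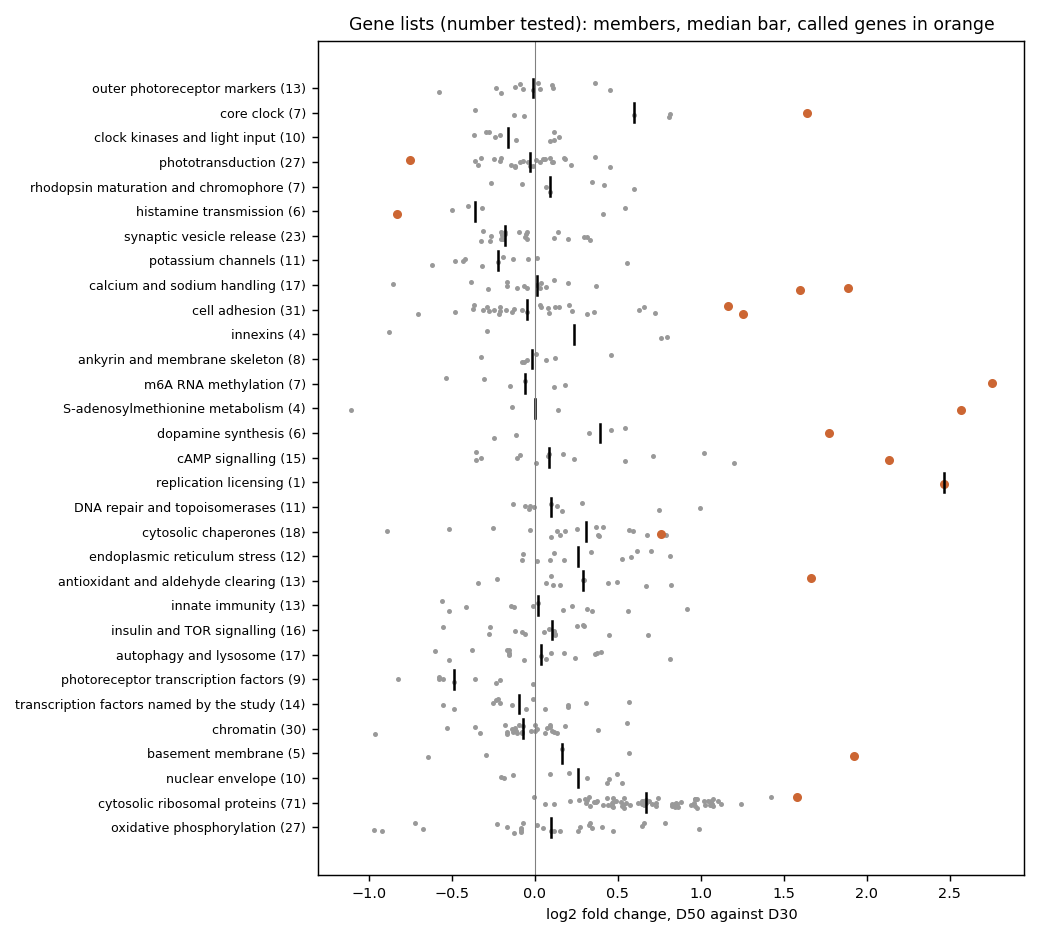
Log2 fold change of D50 against D30 for each tested gene of the 31 lists (grey points, called genes in orange), with a bar at the median of each list and the number tested in parentheses. Most list medians lie near 0. Those furthest to the right are replication licensing at 2.46, which is *Cdc6* alone, ribosomal protein genes at 0.67 and core clock genes at 0.60.

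Over the 31 lists, 14 of the 49 rising and 2 of the 8 falling genes were members, among 443 list genes tested. Over all 4179 genes, 1.17% rose and 0.191% fell. The lists were chosen with earlier results of these data known, so the list counts cannot be weighed against those shares. Most lists had a median near the -0.00 of all genes. It was -0.03 for 27 phototransduction genes, -0.18 for 23 genes of synaptic vesicle release, -0.07 for 30 chromatin genes, 0.10 for 27 genes of oxidative phosphorylation, 0.02 for 13 innate immunity genes and 0.04 for 17 genes of autophagy and the lysosome. None of the latter 5 lists had a called gene. The transcription factors of photoreceptor identity had the lowest median, -0.49 over 9 genes, all 9 negative and 0 called. Among them, *eya* had -0.82 ± 0.32, *so* -0.58 ± 0.21 and *gl* -0.58 ± 0.17 (SE). The median of that list was -0.31 without D30 replicate 1 and -0.24 without replicate 1 of both ages.

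Of the core clock genes, *per* alone was called. *per* encodes Period, which enters the nucleus with Timeless and represses the activator pair Clock and Cycle. Its level was 44.6, 76.4 and 66.2 CPM at D30 and 234, 148 and 197 CPM at D50, with a log2 fold change of 1.64 ± 0.24 (SE, edgeR adjusted p = 0.00654), and its exons overlap those of *dyw*. *tim*, which encodes Timeless, was at 377, 286 and 294 CPM at D30 and 523, 460.1 and 663 CPM at D50, and its log2 fold change was 0.81 ± 0.18 (SE, edgeR adjusted p = 0.0583). *vri*, which encodes a repressor of *Clk*, stood at 65.3, 76.4 and 72.0 CPM at D30 and 148, 114 and 108 CPM at D50, with 0.81 ± 0.20 (SE, edgeR adjusted p = 0.082). The ages did not overlap for either gene, as for the 10.4% of all genes that lay wholly higher, but neither passed the threshold. For *cwo*, a repressor that acts on the same targets, the value was 0.60 ± 0.23 (SE, edgeR adjusted p = 0.239), with 38.2 CPM in each of the 3 D30 libraries and 56.5, 60.5 and 53.9 CPM at D50, again without overlap. *Clk*, which encodes one of the activators, had 612, 523 and 578 CPM at D30 and 333, 461 and 514 CPM at D50, a log2 fold change of -0.36 ± 0.18 (SE, edgeR adjusted p = 0.37). Its partner *cyc* had -0.13 ± 0.38 (SE, edgeR adjusted p = 0.914). *Pdp1*, an activator of *Clk*, had -0.06 ± 0.16 (SE, edgeR adjusted p = 0.889). The list of clock kinases and light input genes had 0 of 10 called and a median of -0.16. All libraries were taken at ZT 6, so a change in level and a shift of the daily rhythm cannot be told apart.

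All 8 falling genes had a mean of at least 20 counts, and their levels were mostly high. *Achl* (chromosome 2R, 14420324 to 14424764) encodes Achilles, an RNA-binding protein that cycles in fly heads under clock control. Its level was 917, 586 and 645 CPM at D30 and 175, 207 and 363 CPM at D50, with a log2 fold change of -1.50 ± 0.26 (SE, edgeR adjusted p = 0.0187). D30 replicate 1 was its highest library, and the call was lost without D50 replicate 1 or 2. *CG32694* (chromosome X, 9989690 to 10006882) had 35.0, 45.8 and 60.3 CPM at D30 and 15.6, 14.5 and 12.5 CPM at D50, and the log2 fold change was -1.69 ± 0.31 (SE, edgeR adjusted p = 0.0268). It was the gene with the largest fall, at a low level, and it kept its call in only 1 of the 6 fits without a library.

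**Figure D3:**
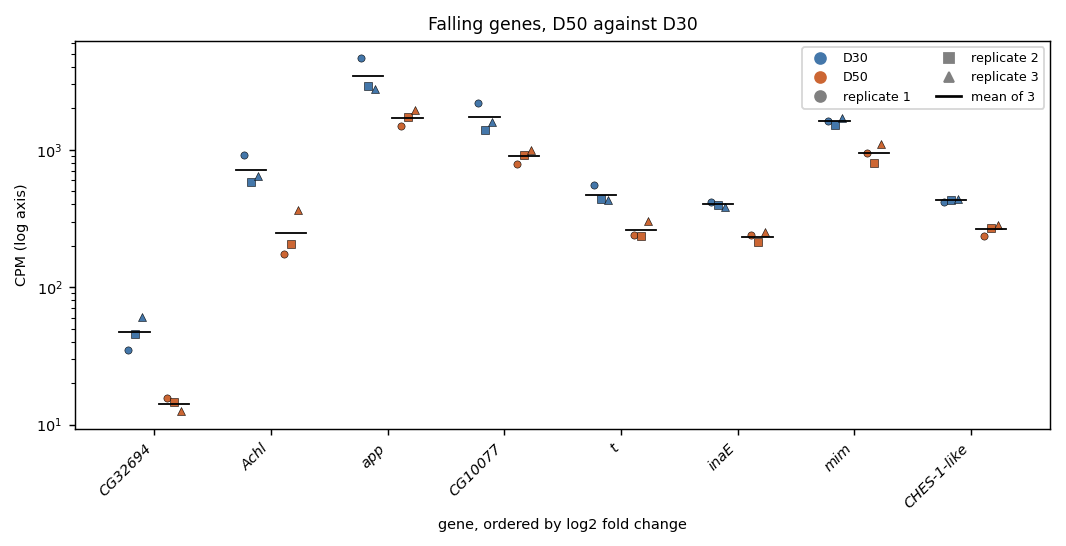
Level of the 8 falling genes in each of the 3 D30 (blue) and 3 D50 (orange) libraries, as CPM on a log axis, with bars at the means. The D50 points lie below the D30 points for each gene, and D30 replicate 1 is the highest D30 library for *Achl*, *app*, *CG10077*, *inaE* and *t*.

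Of the falling genes, 2 were on the lists of phototransduction and histamine transmission. *inaE* (chromosome X, 13783714 to 13811493) encodes a diacylglycerol lipase that is needed for the light response through TRP channels. It was at 417, 399 and 385 CPM at D30 and 238, 212 and 251 CPM at D50, and its log2 fold change was -0.75 ± 0.15 (SE, edgeR adjusted p = 0.0352). Both groups were tight, but the call was lost in 5 of the 6 fits without a library. The other 26 tested phototransduction genes were not called, with *ninaE* at 0.11 ± 0.31, *norpA*, the phospholipase C gene, at -0.07 ± 0.18, *trp* at 0.36 ± 0.20 and *trpl* at 0.45 ± 0.17 (SE). *t* (chromosome X, 9217655 to 9223257) encodes tan, the hydrolase that returns histamine from its carcinine form for reuse. Its level was 551, 435 and 428 CPM at D30 and 241, 234 and 304 CPM at D50, a log2 fold change of -0.83 ± 0.17 (SE, edgeR adjusted p = 0.0415), and it kept its call in only 1 of those fits. Among the other genes of histamine transmission, *Hdc*, which makes histamine, had -0.32 ± 0.21 and *lovit*, a transporter of synaptic vesicles, had -0.50 ± 0.17 (SE), and neither was called.

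The other 4 falling genes act elsewhere. *app* (chromosome 3L, 12206238 to 12266841) encodes a palmitoyltransferase known from growth control by Fat in the wing. It was the most abundant of the 8, with 4619, 2891 and 2784 CPM at D30 and 1484, 1718 and 1935 CPM at D50. D30 replicate 1 was far above the rest, and the log2 fold change was -0.98 ± 0.20 (SE, edgeR adjusted p = 0.0417). *CG10077* stood at 2185, 1392 and 1583 CPM at D30 and 792, 921 and 1001 CPM at D50, with a log2 fold change of -0.90 ± 0.18 (SE, edgeR adjusted p = 0.0402), again with D30 replicate 1 the highest. *mim* encodes a membrane-bending protein, the fly form of missing in metastasis. It had 1631, 1504 and 1697 CPM at D30 and 953, 802 and 1096 CPM at D50, a log2 fold change of -0.73 ± 0.15 (SE, edgeR adjusted p = 0.0417), and its exons overlap *CG3358* and *CheB42c*. *CHES-1-like* encodes a forkhead transcription factor. Its level was 419, 429 and 437 CPM at D30 and 237, 271 and 282 CPM at D50, with the tightest D30 group of the 8, and its log2 fold change was -0.68 ± 0.15 (SE, edgeR adjusted p = 0.0485). Each of these 4 genes kept its call in only 1 or 2 of the fits without a library.

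Of the other rising genes, 22 are described more briefly. Of these, *shps*, *CG14545* and *CG4960* had the largest fitted changes of all, but they rest on very few reads. *shps* had 1, 0 and 1 counts at D30 and 12, 14 and 13 at D50, *CG14545* had 0, 5 and 1 counts at D30 and 14, 24 and 52 at D50, and *CG4960* had 0, 3 and 0 counts at D30 and 13, 11 and 15 at D50. The others with a known role include *Nepl4*, which encodes a neprilysin-like peptidase, *Ets97D*, an ETS transcription factor, *Rnp4F*, a splicing factor, *l(2)gl*, a regulator of cell polarity, *Akap200*, an anchor of the cAMP-dependent kinase, *Arc1*, a capsid-like protein that carries RNA, *Evi5*, a regulator of Rab GTPases, *Dhc98D*, a dynein heavy chain, and *eEF1alpha1*, a translation elongation factor with a near-identical paralog. Among these 9, log2 fold changes ranged from 0.85 for *eEF1alpha1* to 1.98 for *Nepl4*. The other 10 ranged from 0.86 for *B4* to 2.22 for *CG42808*. *Rnp4F* and *Akap200* kept their call in 0 of the 6 fits without a library. Over all rising genes, the exons of 17 of 49 overlap another annotated gene. The median gene length was 4179 bp for the rising, 22120.5 bp for the falling and 5498 bp for all genes tested.

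Whether the 57 genes moved in a second pair of ages was read in D60 against D40. This interval also spans 20 days and shares no library with D50 against D30. The intervals overlap in age, since both contain the time from D40 to D50, so a change between those ages enters both. In D60 against D40, 617 of 4294 genes were called (14.4%), 382 higher (8.9%) and 235 lower (5.47%). Of the 49 genes that rose at D50, 48 were tested there, 43 were positive, 38 were called higher and 0 lower. Their median log2 fold change was 1.82, beside 1.74 in D50 against D30 and -0.01 for all genes of the later interval. Of the 8 falling genes, 7 were tested and all 7 were called lower, with a median of -1.07 beside -0.83. *CG32694* and *CG4960* did not pass the filter there. Without D40 replicate 1 the test of the later interval called 1410 genes, and without 1 of the other libraries 340 to 469, while 38 to 46 of the 57 genes were called the same way as at D50, against 45 with all libraries.

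**Figure D4:**
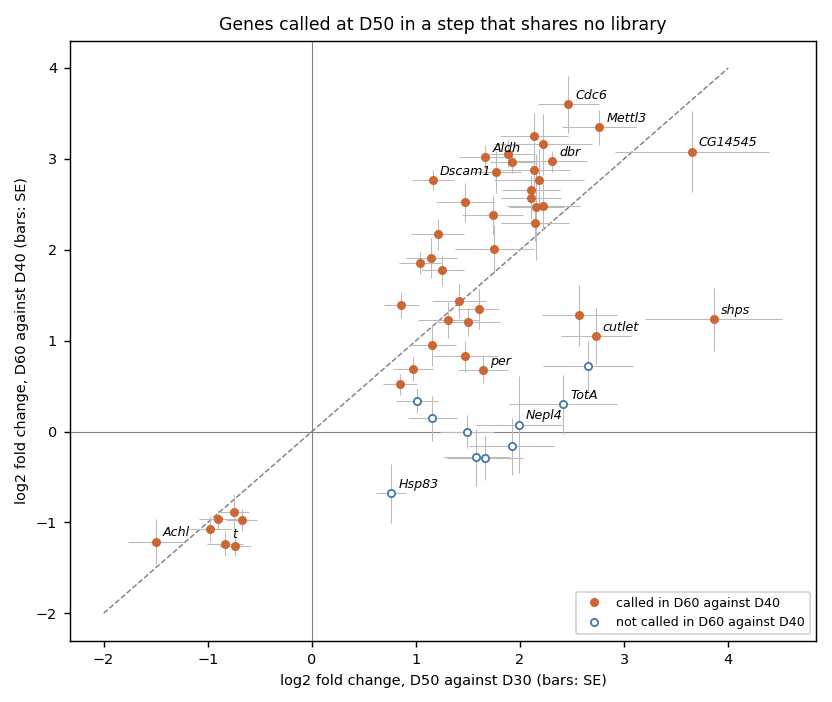
Log2 fold change of D60 against D40 (vertical axis) over that of D50 against D30 (horizontal axis) for the 55 called genes tested in both, with bars of 1 SE and a dashed line where both are equal. Filled points were called in D60 against D40, and *TotA*, *Nepl4* and *Hsp83* are among the 10 open points.

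For some genes the fitted change was larger in the later interval. *Cdc6* had 3.60 ± 0.31 (SE, edgeR adjusted p = 5.95e-06) in D60 against D40, beside 2.46 in the earlier one. *Aldh* had 3.02 ± 0.13 (SE, edgeR adjusted p = 6.94e-09) there, beside 1.67. *Dscam1* had 2.77 ± 0.11 (SE, edgeR adjusted p = 6.94e-09), beside 1.16. Only for *Dscam1* of the 57 genes did a test of the difference between the intervals pass the threshold (1.62 ± 0.24 (SE) on the log2 scale, edgeR adjusted p = 0.00475), and over all genes 4 of 4745 passed (0.0843%). Of the 48 rising genes tested, 10 were not called in the later interval. Among them *TotA* had 0.30 ± 0.32 (SE, edgeR adjusted p = 0.617). *CG6503* had -0.16 ± 0.31 (SE, edgeR adjusted p = 0.803), and *Hsp83* had -0.68 ± 0.32 (SE, edgeR adjusted p = 0.196). None of these 3 passed the test of the difference between the intervals.

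The level at 4 ages showed different courses among the called genes. At D30, D40, D50 and D60 the mean level of *Mettl3* was 17.7 ± 8.49, 29.8 ± 9.18, 121 ± 39.8 and 303 ± 9.59 CPM (SD, n = 3 at each age). D40 lay near D30, and D60 lay above D50. *Cdc6* followed the same order, at 13.6 ± 3.62, 14.2 ± 10.3, 75.4 ± 10.6 and 172 ± 18.2 CPM. *dbr* was at 228 ± 100.5, 313 ± 29.2, 1110.5 ± 445 and 2443 ± 83.2 CPM. For *Rgk1* the levels were 88.6 ± 21.4, 95.0 ± 19.3, 325 ± 103 and 787 ± 19.7 CPM, and for *ple* they were 152 ± 31.5, 112 ± 51.3, 512 ± 158 and 806 ± 52.5 CPM. In these genes the D40 libraries were close to or within the D30 range, and all D60 libraries lay above all D50 libraries. *per* ran otherwise, at 62.4 ± 16.2, 230.03 ± 40.97, 193 ± 43.4 and 365 ± 26.9 CPM, and its D40 libraries already lay above every D30 library and overlapped with D50. *cutlet* was likewise higher at D40, at 15.6 ± 8.45, 74.6 ± 39.9, 105 ± 20.6 and 154 ± 16.9 CPM. *Achl* had a lower mean at D40 than at D30, at 716 ± 177, 314 ± 125, 249 ± 100.6 and 135 ± 3.58 CPM, with D40 overlapping D50.

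**Figure D5:**
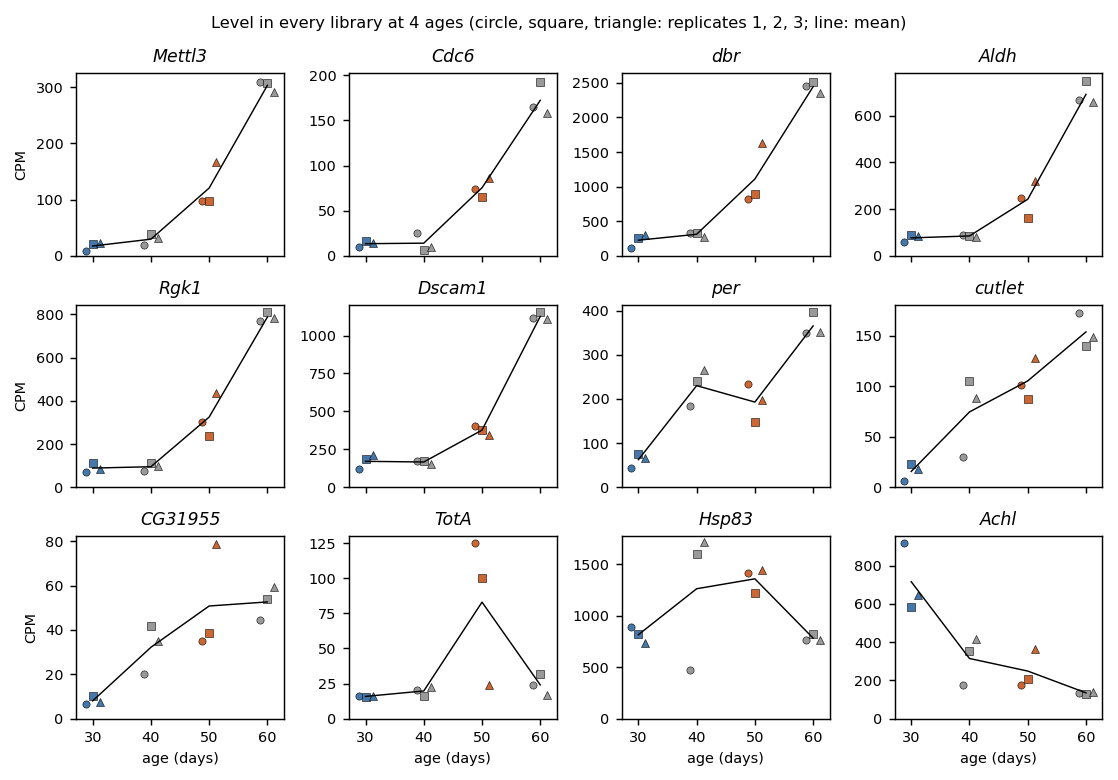
Level in CPM of 12 called genes in each library of D30, D40, D50 and D60 (circle, square and triangle for replicates 1, 2 and 3), with a line through the means. *Mettl3*, *Cdc6*, *dbr*, *Aldh*, *Rgk1* and *Dscam1* lie low at D40 and highest at D60, *per* and *cutlet* are up at D40, and *TotA* and *Hsp83* are lower at D60 than their mean at D50.

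Of the rising genes in the plot of levels at 4 ages, 2 had mean levels at D60 below those at D50. *TotA* was at 15.8 ± 0.462, 19.7 ± 3.30, 83.1 ± 52.8 and 24.0 ± 7.58 CPM, and its D60 libraries lay at 23.8, 31.7 and 16.5 CPM, near D30. *Hsp83* was at 815 ± 77.7, 1262 ± 686, 1358 ± 118 and 782 ± 34.4 CPM. Its D40 libraries spread widely, at 473, 1598 and 1715 CPM, with D40 replicate 1 far below the others, while the D60 libraries lay within the D30 range.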

How the data were processed

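Nuclear RNA-seq libraries of D30 and D50 Rh1>GFPKASH photoreceptors were made with the Ovation SoLo kit from 10 ng of RNA. The authors deposited raw counts per gene, with no normalization, in a table of the 12 libraries of D30 to D60. The submitters' processing notes name Trimmomatic, STAR, SAMtools and DESeq2 and the builds dm6 and BDGP6. Versions, the strand setting and the handling of PCR duplicates are not given in the sources used here, which leaves counts of overlapping genes uncertain, and a duplicated read may add more than 1 count. Of 13929 gene identifiers, 13866 matched the Ensembl annotation of BDGP6 (release 115), which gave positions, lengths and exon overlaps.

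Counts were tested in edgeR 4.0.16 (R 4.3.3) with the quasi-likelihood F-test, TMM normalization and the default filter (minimum count 10, minimum total 15) on the 2 groups of a comparison alone. P-values were two-sided and adjusted over all genes tested by Benjamini-Hochberg, with a threshold of 0.05. SEs are the log2 fold change, without its sign, over the root of the F statistic. The difference between the intervals was tested as an interaction over the 12 libraries, which was added after the data were seen. Genes with values in every library were the 15 rising and 8 falling called genes with the largest log2 fold change at a mean of at least 20 counts. Called genes on a list and all core clock genes were named in addition, and others by counts and ranges. The genes, lists and rules were chosen with earlier results of these data known. Lists were described by counts and medians only. Alternatives were DESeq2 1.42.0, RLE factors, library size alone, other filters, a replicate block, a test against a 1.5-fold change, a shared fit of all ages, and fits without a library. Correlations used log2 CPM with a prior count of 2. Counts were also simulated from the real libraries, with 200 of 4041 genes changed by 2 on the log2 scale. D50 against D30 recovered 97% of them, and 4.43% of its calls were false. The simulated spread depended on expression level alone, and no library was made to stand apart. These shares may therefore not hold for the reported calls, many of which had smaller changes. Promoter sequences were not used here. Values of 1 called gene are not reported here.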

Additional observations from a re-analysis of the deposited data

Results flagged for a closer look

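*Dscam1* differed between the 2 intervals of 20 days. Its log2 fold change was 1.16 ± 0.20 (SE) in D50 against D30 and 2.77 ± 0.11 (SE) in D60 against D40, and the later change exceeded the earlier one by 1.62 ± 0.24 (SE, edgeR adjusted p = 0.00475, over 4745 genes). All 3 D60 libraries lay above all D40 libraries, and all 3 D50 libraries above all D30 libraries.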

How the results depend on the processing

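D50 against D30 called 57 genes, 49 higher (86.0%). The count was 233 with no filter (73.8% higher), 20 at a fold change over 1.5 (all higher), 151 when all ages shared a fit (72.8% higher) and 121 without replicate 1 of both ages (71.1% higher). It lay between 21 (without D30 replicate 3) and 78 (without D30 replicate 1, 71.8% higher) over the fits without a library, which have fewer samples. DESeq2 gave 79, RLE factors 55, library size alone 61 and a minimum of 10 counts in every library 44. D60 against D40 called 617 genes, 154 at a fold change over 1.5, 1153 without replicate 1 of both ages, and 340 to 1410 when a single library was left out, the most without D40 replicate 1. Of the genes called at D50, 45 were called the same way in D60 against D40, and 35 to 46 under the alternatives of that test. None of the 57 called genes changed sign in the settings run, and 10 of the 57 were tested and called in every setting. *Cdc6*, *CG1648*, *cutlet*, *Gnmt*, *Mettl3* and *Shawl* were called in all 14 settings in which they were tested. They were not tested at a minimum of 10 counts in every library. Apart from the smaller fits, the cause of these differences was not tested.

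Over all genes, the replicate numbers showed no pairing of the libraries. The deviations of same-numbered D30 and D50 libraries from their group means correlated at -0.00, 0.02 and 0.03 across genes. Single genes can differ from this. *Ank2* took its lowest share of counts in replicate 1 at D30 (4.50%), D40 (6.10%) and D50 (6.18%), but not at D60 (7.85%). Whether the replicate 1 libraries shared an effect was not tested. A replicate block called 53 genes for D50 (49 higher and 4 lower), 41 of them among the 57, and 570 in D60 against D40. *app*, *CG10077*, *CHES-1-like*, *inaE* and *t* were not called under the block.

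At 629634 to 824704 counts per library, genes below the filter were not tested. Of the called genes, 42 of the 49 rising and all 8 falling averaged at least 20 counts.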
